A study of Mus musculus with 16 samples.

Results

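T-to-C and A-to-G changes are the transitions that a T:A base pair of mitochondrial DNA can show on the strand written in the reference. They were taken as every entry of the deposited non-reference counts with reference base T and alternative base C, or reference base A and alternative base G. This gave 4681 T>C alleles and 5629 A>G alleles, together 10310 of the 48897 alleles of the 16299-position mitochondrial genome. An allele is 1 position with 1 of its 3 non-reference bases, and its fraction is its count divided by the coverage at that position in the same library. No measured value entered the rule that picks these alleles. The rule, the tests and the thresholds were nevertheless chosen with earlier results of these data known.

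The data came from 16 bulk ATAC-seq libraries of cells sorted from femurs of 3-month-old mice with the genotype PolG D257A/D257A. The D257A change removes the proofreading activity of PolG, the polymerase that copies mitochondrial DNA, in every cell of the animal. All libraries carried this genotype, so no library measured the background in mice with a proofreading polymerase. The 8 sorted subsets are named by surface markers (CD45 and CD105; Thy, 6C3 and Thy_6C3; CD24, CD29 and CD24_CD29), and each had 2 libraries numbered 1 and 2. CD45 marks blood-lineage cells, and the other markers are used to part skeletal stem, progenitor and stromal cells. The labels call every sample skeletal cells, and the tables used here hold no gene expression against which the sorted identities could be checked. They do not say how many mice gave a library, so p-values rest on a spread between libraries that could be technical.

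Mean coverage per library ran from 6569 counts per position in CD24_CD29 replicate 2 to 77252 in CD29 replicate 1. With 3 counts as the limit for a count of 0, at mean coverage a fraction below 0.0457% could be missed in the former. In the latter, one below 0.00388% could be missed. At positions of lower coverage, higher fractions could be missed. Thy replicate 2 stood apart in changes other than T>C and A>G. Its mean A>C fraction was 0.765% and its mean T>G fraction 0.665%, against 0.0875% to 0.142% and 0.0788% to 0.122% in the other 15 libraries. All remaining transversions were also highest in it, such as C>A at 0.549%, with 0.347% in CD24_CD29 replicate 1 as the next. Its T>C and A>G means, 0.210% and 0.144%, were the highest outside the 6C3 and CD29 libraries. Some tests and the mean folds of replicate 2 are therefore also given without it. Other comparisons of subsets within replicate 2 include it.

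Mitochondrial DNA has a G-rich heavy strand and a G-poor light strand. In the deposited reference sequence, 12.4% of positions are G, 24.4% C, 34.5% A and 28.7% T, which makes the written strand the light strand. A T>C allele on it is the same base-pair change as A>G on the heavy strand, and an A>G allele is the same as T>C on the heavy strand. In the strand-displacement description of replication, synthesis starts in the control region and displaces the old heavy strand. Each part of it stays single-stranded until the second strand, started at the light-strand origin, reaches it. A polymerase without proofreading leaves mispaired bases behind, and transitions are known as its most frequent error. Counts were not split by read strand, so strand asymmetry here means unequal fractions of complementary changes on the reference strand.

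The alleles with the highest fractions show what these changes look like in the sequence. For each change and each replicate number, the 3 alleles with the highest mean over 8 libraries are printed, with the allele that reached the highest fraction among those counted in a single library of that number. Each line holds the reference light strand, 5′ to 3′, with 10 bases on both sides, and the changed base is in capitals. The name of an allele gives the base of the reference, then the GRCm38 position (the first base is 1), then the alternative base.
T8300C: aaaagctcacTtgcccacttc
T14046C: aataatgaacTtaaaacaaaa
T8331C: gaactccaatTtcactaattc
T14914C: gacaactacaTaccagctaat
T1449C: gatagctggtTacccaaaaaa
T3975C: gtaatcacaaTatccagcacc
T3607C: gatcaacttaTacatcttcta
T10941C: atatatagcaTaccccttcat
A11465G: acacacgagaActaacactaa
A10308G: aaccgacgaaAattataaaaa
A9444G: ttctgaataaAcccagaagag
A10814G: acctatgactAccaaaagccc
A8790G: acgagacgtaAttcgtgaagg
A11708G: ggtcttaggaAccaaaaacct
A11579G: tagactgtgaAtctgacaaca
A5062G: atgcaaatcaAttgctttaat
Their values are given in the last paragraphs, after the comparisons over all positions.

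T>C fractions were higher than A>G fractions in every library. The mean over positions was lowest in Thy_6C3 replicate 1 at 0.151% for T>C and in Thy replicate 1 at 0.113% for A>G. The medians over the 16 libraries were 0.173% and 0.127%, and the highest means, in 6C3 replicate 1, were 0.321% and 0.216%. The ratio of T>C to A>G ran from 1.27 to 1.49 with a median of 1.36, and it was above 1 in 16 of 16 libraries. On the log2 scale the asymmetry was 0.46 (exact sign-flip permutation test over the 8 subset means, two-sided, adjusted p = 0.00781, the smallest that 8 values allow). All libraries read the same positions, so this p says only that the libraries were alike over these positions. The error over positions was 0.025 on the log2 scale, and the asymmetry exceeded it many times over.

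Alleles under 1% in all 16 libraries, called low alleles below, carried the asymmetry as well. They comprised 4405 T>C and 5420 A>G alleles, and their ratio ran from 1.28 to 1.51, with a mean log2 of 0.46 and an error over positions of 0.021. Alleles under 1% in the library itself held 80.5% to 97.4% of the summed T>C fraction and 85.2% to 96.6% of the summed A>G fraction. The ratio of medians over positions was larger, from 1.68 to 2.003. On average over libraries, 23.3% of T positions lay under 0.05%, against 40.2% of A positions. The asymmetry was thus present in low alleles alone and in the medians, not in high alleles only.

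The other transition pair leaned the opposite way. For low alleles, G>A over C>T ran from 0.716 to 0.837 and was above 1 in 0 of 16 libraries. The difference between both pairs was 0.83 on the log2 scale, with an error over positions of 0.040 (exact sign-flip permutation test, two-sided, adjusted p = 0.00781, same sign in 8 of 8 subsets). Among low transversion alleles, G>T over C>A stayed between 0.987 and 1.02, and A>C over T>G between 0.968 and 1.04. Low alleles leave out those at 1% or more in Thy replicate 2. Over all alleles, G>T over C>A was above 1 in 15 of 16 libraries, at 0.999 to 1.03, and A>C over T>G in 16 of 16, at 1.07 to 1.16. C>G over G>C had a median of 0.821, so unequal complementary fractions were not limited to transitions. In number, alleles at 1% or more with at least 5 counts, called counted alleles below, leaned toward T>C less evenly. Their number per 1000 positions gave ratios from 0.902 in CD24 replicate 1 to 2.50 in Thy replicate 1, with a median of 1.59.

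**Figure D1:**
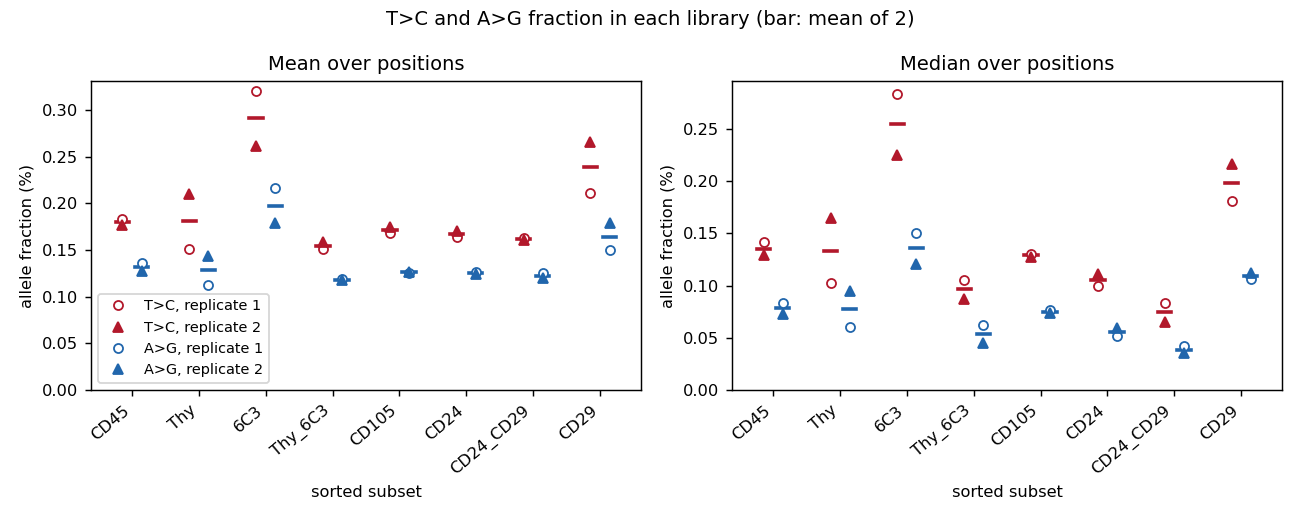
Mean and median T>C and A>G fraction over positions (%, vertical axes) in each of the 16 libraries, by sorted subset (horizontal axis). Open circles are replicate 1, filled triangles replicate 2, and bars the mean of both. T>C lies above A>G in every library, and the 6C3 and CD29 libraries are the highest for T>C, from 0.212% to 0.321% by the mean.

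6C3 and CD29 cells held the highest T>C and A>G fractions in both replicate numbers. The mean T>C fraction was 0.321% and 0.261% in 6C3 cells, and 0.212% and 0.265% in CD29 cells, for replicates 1 and 2. Thy cells gave 0.151% and 0.210%, CD45 cells 0.183% and 0.177%, and CD105 cells 0.168% and 0.174%. CD24 cells gave 0.164% and 0.171%, CD24_CD29 cells 0.163% and 0.160%, and Thy_6C3 cells 0.151% and 0.158%. All 4 libraries of 6C3 and CD29 thus lay above the other 12, the highest of which, Thy replicate 2, was close to CD29 replicate 1. The means of the other 6 subsets differed from each other by less than the 2 Thy libraries did.

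A>G fractions had the same order at the top. They were 0.216% and 0.178% in 6C3 cells and 0.150% and 0.179% in CD29 cells, against 0.113% and 0.144% in Thy cells and 0.136% and 0.127% in CD45 cells. The remaining 4 subsets lay between 0.118% and 0.127%. Across the 16 libraries the T>C and A>G means rose and fell together (Pearson r = 0.997, Spearman rho = 0.985, permutation p = 1e-05 for each, the smallest that 100000 resamples give, adjusted p = 9e-05 over 9 relations). Leaving out the 2 libraries farthest from the median T>C fraction gave r = 0.994. Within replicate 1 and replicate 2 alone, r was 0.998 and 0.997. Both means come from the same libraries and share their depth.

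Of the variance in the log2 mean, 86.3% lay between subsets for T>C and 86.8% for A>G. An exact permutation test over all pairings of the 16 libraries, one-sided, gave adjusted p = 0.0368 for both, over 5 measures. These calls were not stable: the adjusted p rose above 0.05 when any 1 of 14 of the 16 libraries was left out, to between 0.0545 and 0.173, the highest without 6C3 replicate 1. They remained without Thy replicate 1 (0.0108 for T>C, 0.0109 for A>G) and without Thy replicate 2 (0.0111 for both). Without both 6C3 libraries the adjusted p was 0.203 for both, without both CD29 libraries 0.0798, and without both CD24_CD29 libraries 0.0512. The share of the asymmetry between subsets did not pass (72.9%, exact permutation adjusted p = 0.124), but did for low alleles (80.9%, adjusted p = 0.0458). The numbers of counted alleles did not pass either, at 61.0% for T>C (exact permutation adjusted p = 0.219) and 69.4% for A>G (0.124). With libraries compared only within their replicate number, as a block, both fraction calls were lost and the asymmetry passed. The values of this replicate block are given in the last paragraph.

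Coverage moved with these levels, and its part in them was not tested. Over all 16 libraries the T>C mean and coverage had r = 0.559 (Spearman rho = 0.606, permutation adjusted p = 0.0383 and 0.0265), and r = 0.527 without the 2 libraries of most distant coverage. Within replicate 1, r was 0.411 (exact permutation adjusted p = 0.335). Within replicate 2 it was 0.856 (0.00763).

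The higher level of 6C3 and CD29 cells was next compared with the other 6 subsets of the same replicate number. These subsets were picked after their values were seen, so the folds below are descriptions without a test. T>C was 1.96-fold and 1.49-fold the level of the other subsets in 6C3 replicates 1 and 2, and 1.29-fold and 1.51-fold in CD29 replicates 1 and 2. The corresponding A>G folds were 1.74, 1.41, 1.21 and 1.41. The other 10 changes ran from 0.851 to 1.01 in 6C3 replicate 1 and from 0.923 to 1.05 in CD29 replicate 1. In replicate 2 the comparison contained Thy replicate 2 with its high transversion fractions. Without it, T>C was 1.55-fold and 1.58-fold, A>G 1.45-fold for both subsets, and the other 10 changes ran from 0.877 to 0.991 in 6C3 cells and from 0.868 to 1.09 in CD29 cells. In each of these 4 libraries T>C and A>G thus had larger folds than all 10 other changes.

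**Figure D2:**
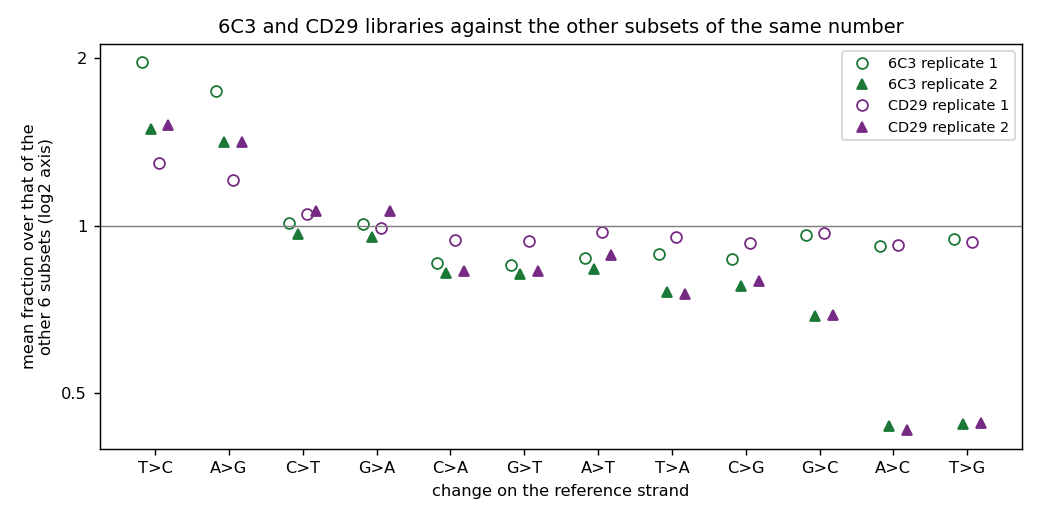
Mean fraction of each of the 12 base changes (horizontal axis) in the 6C3 and CD29 libraries divided by the mean of the other 6 subsets of the same replicate number (vertical axis, log2 scale). Open circles are replicate 1 and filled triangles replicate 2. T>C and A>G lie between 1.21 and 1.96. All replicate 2 points, with A>C and T>G the lowest, are folds against a group that holds Thy replicate 2, where all transversions were high.

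The excess was wide rather than local. For low alleles, each of the 16 neighbour contexts of T>C was higher in all 4 libraries, by 1.94-fold to 2.21-fold in 6C3 replicate 1 and by 1.21-fold to 1.54-fold in CD29 replicate 1. The contexts of A>G were higher by 1.57-fold to 2.02-fold and by 1.10-fold to 1.35-fold in the same libraries. Control region, protein genes, rRNA genes and tRNA genes each showed it, with T>C folds of 1.95, 2.01, 2.19 and 2.12 in 6C3 replicate 1. In 6C3 replicate 2 and CD29 replicate 2 the T>C contexts were higher by 1.45-fold to 1.71-fold and by 1.36-fold to 2.01-fold. The control region folds of the other 3 libraries were lower, at 1.39 in 6C3 replicate 2, 1.28 in CD29 replicate 1 and 1.44 in CD29 replicate 2. At the depths of these libraries, medians differed more than the upper end of the fractions. The median T>C fraction was 2.56-fold and 1.97-fold that of the other subsets in 6C3 replicates 1 and 2, and 1.64-fold and 1.90-fold in CD29 replicates 1 and 2. The fraction that 90% of positions stay under was 1.63-fold, 1.23-fold, 1.08-fold and 1.34-fold in the same order. Depth was unlike: mean coverage was 77252 in CD29 replicate 1 and 13534 to 39931 in the other 6 subsets of that number. CD24_CD29 replicate 1, the shallowest, had a T>C median of 0.0839% and a 90% mark of 0.410%. CD105 replicate 1 had 0.131% and 0.347%. The part of depth in this contrast was not tested. The absolute excess was 1.66 to 1.85 times as large for T>C as for A>G. All replicate 2 values of this paragraph are against a group that holds Thy replicate 2.

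CD24_CD29 libraries had low median fractions and many counted alleles. Their median T>C fractions, 0.0839% and 0.0653%, and median A>G fractions, 0.0419% and 0.0358%, were the lowest within their replicate numbers. They nevertheless held 55 and 88 counted T>C alleles, where the other libraries held 16 to 55, and 58 and 66 counted A>G alleles, where the others held 9 to 34. Of these, 38 and 61 T>C alleles and 39 and 48 A>G alleles reached the counting limit in none of the other 7 libraries of that number. These were the 2 shallowest libraries, at mean coverages of 13534 and 6569. Their mean T>C fractions, 0.163% and 0.160%, were not the lowest, with 0.151% and 0.158% in Thy_6C3 cells. In replicate 2, 20.4% of T and 29.4% of A positions had 0 counts. The A>G median there was below the 0.0457% that 3 counts make at mean coverage. The medians were not compared at equal depth, so the part of depth in them was not tested. With every library thinned at random to a mean coverage of 6569, CD24_CD29 cells held 59 and 88 counted T>C alleles, against 16 to 65 in the other 14 libraries, and 61 and 66 A>G alleles, against 11 to 37. Many counted T>C alleles were thus not particular to this subset, with 65 in CD29 replicate 2 and 56 in 6C3 replicate 1 at that depth. The share of these numbers between subsets did not pass at that depth either (58.8% for T>C, exact permutation adjusted p = 0.259, and 77.7% for A>G, 0.0621).

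Neighbouring bases were read from the reference sequence, and a context is written as the base before and the base after, joined by _. For T>C the highest low-allele means over 16 libraries were in G_T (0.227%), C_C (0.216%) and C_T (0.216%). The lowest were in T_G (0.114%), T_A (0.141%) and A_G (0.150%), so that the highest was 1.99 times the lowest. For A>G the highest were G_G (0.213%), G_C (0.195%) and A_C (0.182%), and the lowest C_A (0.0761%), C_T (0.0835%) and A_A (0.0954%), a range of 2.79 times.

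Most contexts were on the same side of the other 15 in all 8 subset means, but A>G in G_A in only 4 of 8. Each context was compared with the other 15 of its change by the exact sign-flip permutation test over subset means, adjusted over 32 contexts. It passed in 15 of 16 contexts for T>C, 7 higher and 8 lower, and in 14 of 16 for A>G, 7 higher and 7 lower. Since libraries share positions, the error over positions is the stricter measure. By it, T>C was more than 2 errors higher in 5 contexts and lower in 6, and A>G higher in 6 and lower in 7. Without Thy replicate 2 the sign-flip test passed in 13 contexts for T>C and 14 for A>G.

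The changes also differed by the single bases on either side. A>G was higher before C or G than before A or T, with a ratio of 1.50 to 1.79 in 16 of 16 libraries. Before C the mean was 0.178% and before G 0.154%, while before T it was 0.106% and before A 0.0967%. The same ratio for the base preceding A was 0.922 to 1.01, because G and C lay apart there: the mean was 0.167% after G, 0.132% after A, 0.121% after T and 0.102% after C. A>G after G was 1.27 to 1.53 times that after T in 16 of 16 libraries. T>C after C or G was 1.16 to 1.30 times that after A or T in 16 of 16 libraries, with 0.201% after C, 0.197% after G, 0.171% after A and 0.148% after T. By the following base the same grouping gave 0.918 to 1.04, but T>C was 0.188% before T and 0.184% before C, against 0.167% before A and 0.143% before G. The spread over single bases was thus of similar size on both sides of T. Read on the opposite strand, a base following A is the complement of one preceding T. Outside runs of 4 or more identical bases, C or G over A or T gave 1.42 to 1.65 for the base after A and 1.14 to 1.25 for the base before T.

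Each T>C context has a complementary A>G context that describes the same double-stranded triplet. Across the 16 such pairs the means had r = 0.818 and rho = 0.797, a description in which the points share libraries and positions' base composition. T>C was the higher member in all 16 libraries for 10 of 16 pairs, and its median ratio was above 1 in 15. The ratio was highest for T>C in A_G against A>G in C_T, at a median of 1.75 (range 1.59 to 2.02). It was lowest for T>C in G_G against A>G in C_C, at 0.927 (range 0.635 to 1.21), which overlaps 1. With equal weight for the 16 pairs, the strand ratio of low alleles was 1.19 to 1.42, against 1.28 to 1.51 with every position weighted alike.

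Fractions were lower in longer runs of the same base, a comparison chosen after values were seen. Low A>G alleles outside the light-strand origin had a mean of 0.135% ± 0.0329 (SD, n = 16 libraries) at single A positions, 0.137% in pairs and 0.120% in runs of 3. The mean was 0.0825% in runs of 4 and 0.0522% ± 0.0124 (SD, n = 16) in runs of 5 to 8. The highest library in runs of 5 or more, at 0.0799%, was below the lowest library at single positions, at 0.0994%. T>C went from 0.180% ± 0.0515 (SD, n = 16) at single T positions to 0.127% in runs of 4 and 0.104% ± 0.0254 (SD, n = 16) in runs of 5 or 6. How alignment places bases within runs is not given in the sources used here, and its part was not tested. Without runs of 4 or more the strand asymmetry was 0.40 on the log2 scale for all alleles and for low alleles.

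Counted alleles followed the neighbours only in part. A>G alleles were counted in any library at 8.66% of A_C positions (42 of 485) and at 1.28% of C_A positions (6 of 470). For T>C, 8.90% of C_T positions (29 of 326) and 1.37% of T_G positions (2 of 146) held one. G_T, the highest T>C context by mean, had 4.88% (6 of 123), which is below the 5.90% of all T positions.

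Position along the genome was read against 3 marks from the RefSeq annotation of GRCm38.p6. The control region, MT:15423-16299, lies after the last annotated gene and holds the promoters and the heavy-strand origin. The light-strand origin, a stem-loop from which the second strand is started, was taken as the gap between the tRNA genes TrnN and TrnC, MT:5160-5191. It divides the rest into a minor arc, positions 1 to 5159, and a major arc, positions 5192 to 15422.

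Both changes were lower in the control region than elsewhere. Low T>C alleles had a mean of 0.0870% ± 0.0258 (SD, n = 16) over 254 control-region positions and 0.180% over 4151 others. Low A>G alleles had 0.0746% ± 0.0189 (SD, n = 16) over 292 positions and 0.128% over 5128. The ratio of control region to the rest was 0.434 to 0.684 for T>C and 0.469 to 0.711 for A>G, below 1 in 16 of 16 libraries for both. On the log2 scale the difference was -1.05 with an error over positions of 0.072 for T>C, and -0.78 with an error of 0.106 for A>G. Giving the contexts the same weight in both regions left median ratios of 0.436 and 0.565.

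The other transitions were lower there by a similar or larger ratio, and most transversions by a smaller one. C>T and G>A had median ratios of 0.367 and 0.354. The 8 transversions had medians from 0.885 to 1.08: C>A, G>T, A>T and G>C were below 1 in 16 of 16 libraries, T>A and T>G in 15, A>C in 4 and C>G in 1. Coverage of the control region was 0.832 to 1.07 times that of the rest. Counted alleles there were 3 of 257 T positions and 5 of 297 A positions.

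**Figure D3:**
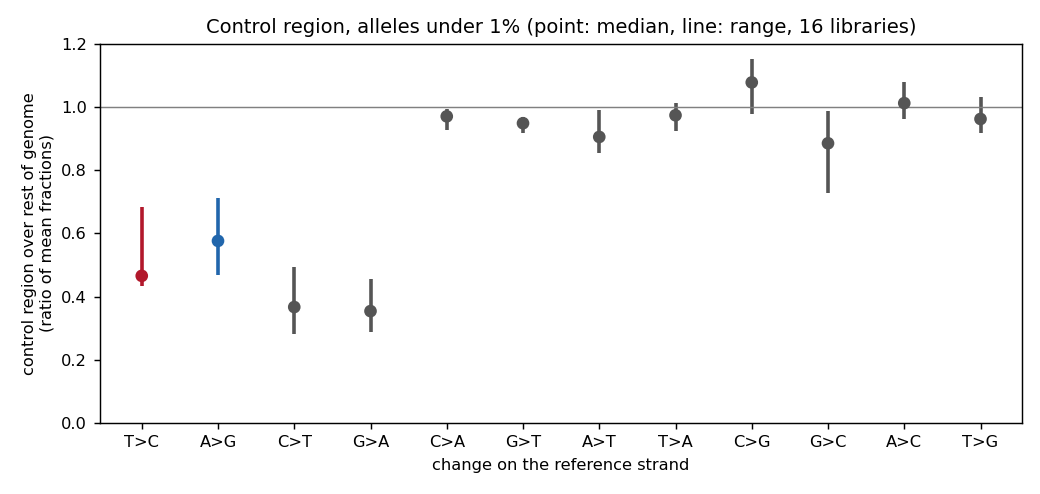
Ratio of the mean low-allele fraction in the control region to that in the rest of the mitochondrial genome (vertical axis) for each of the 12 base changes (horizontal axis). Points are medians and lines the range over 16 libraries. The 4 transitions lie at medians from 0.354 to 0.576, and the 8 transversions from 0.885 to 1.08.

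In bins of 500 positions, both changes were lowest at 15501 to 16000 inside the control region, with 0.0809% for T>C and 0.0652% for A>G. T>C was highest at 4001 to 4500, within ND2, a complex I subunit gene, at 0.206% (range 0.149% to 0.329%). A>G was highest at 8501 to 9000, across ATP6 and COX3, subunit genes of ATP synthase and cytochrome c oxidase, at 0.160% (range 0.117% to 0.252%). Across all 33 bins the means of both changes had r = 0.465 and rho = 0.133, and across the 30 bins that end before the control region r = -0.189 and rho = -0.080. The profiles of both changes therefore shared the drop in the control region and little else. The bins share libraries and coverage, so these are descriptions.

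**Figure D4:**
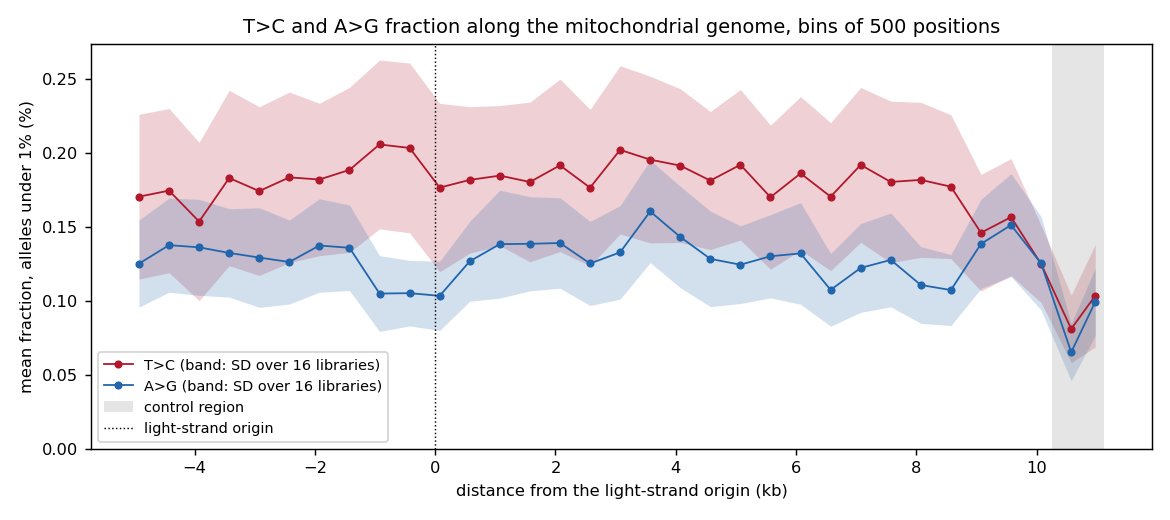
Mean fraction of low T>C and A>G alleles (%, vertical axis) in bins of 500 positions against distance from the light-strand origin (kb, horizontal axis). Lines are means and bands the SD over 16 libraries. The grey area is the control region, where both changes are lowest, with 0.0809% for T>C and 0.0652% for A>G in the lowest bin.

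Arcs and gradients gave small differences. The T>C mean was 0.179% on the major arc and 0.182% on the minor arc, a log2 difference of -0.020 that turned to 0.071 for alleles under 0.5% (exact sign-flip permutation test, two-sided, adjusted p = 0.406 and 0.0586 over 6 position tests). A>G had 0.130% and 0.126%, a log2 difference of 0.053 that passed (exact sign-flip permutation adjusted p = 0.0156, higher in 8 of 8 subsets) but was within 2 errors over positions (0.035 each). T>C fell by 0.031 on the log2 scale per kb along the major arc (exact sign-flip permutation adjusted p = 0.0156, 8 of 8 subsets, error of the line through bins 0.0091). This slope was -0.011 per kb, with an exact permutation adjusted p of 0.0656, when low alleles were those under 0.5%. The fall was not even along the arc. T>C bin means lay between 0.170% and 0.202% from 5501 to 14000. They were 0.146% at 14001 to 14500 and 0.156% at 14501 to 15000. How far the slope rests on the bins next to the control region was not tested. The A>G slope was -0.0051 per kb (exact sign-flip permutation adjusted p = 0.113). It passed without Thy replicate 1 and without CD24_CD29 replicate 2 (exact permutation adjusted p = 0.0469 each), and turned to 0.0056 per kb without runs of 4 or more identical bases. Whether the slopes of both changes differ was not tested.

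Codon positions differed little. At the third codon position, T>C and A>G leave the amino acid as it is in the vertebrate mitochondrial code. That position had a T>C mean of 0.186%, against 0.187% and 0.179% at the first and second. For A>G the means were 0.130%, 0.121% and 0.136%. On the log2 scale the third position exceeded the others by 0.033 for T>C (exact sign-flip permutation adjusted p = 0.0156) and by 0.041 for A>G (0.0234), both within 2 errors over positions (0.033 and 0.039 each). The T>C call was lost without CD24_CD29 replicate 1 (exact permutation adjusted p = 0.129), and the A>G call without Thy_6C3 replicate 1 (0.0703) or CD24 replicate 1 (0.141). For alleles under 0.5% the T>C difference turned to -0.070 (exact permutation adjusted p = 0.0156). Of counted T>C alleles in protein genes, 22.8% were at the third position, which makes up 26.3% of T positions there. For A>G the shares were 41.4% and 46.1%.

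The light-strand origin was examined after its bin was lowest for A>G before the control region (0.103%, against 0.105% in bins from 4001 to 5000). Its 32 bases of reference light strand, MT:5160-5191, hold 13 A and 5 T positions, shown in capitals in the first and the second line.
Light-strand origin, A positions: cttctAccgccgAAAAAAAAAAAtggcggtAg
Light-strand origin, T positions: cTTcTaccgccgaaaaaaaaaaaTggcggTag
A>G over the 13 A positions had a mean of 0.0327% ± 0.0134 (SD, n = 16 libraries), against 0.126% for low alleles elsewhere, and was lower in 16 of 16 libraries. The neighbour contexts of these positions would give 0.110%, so the level was 0.297 times what the contexts predict. A run of 11 A positions, MT:5172-5182, had a mean of 0.0241%, with 0.0693% at its last position and at most that elsewhere in it. The level in runs of 5 to 8 A elsewhere, 0.0522%, was also below that of all low A>G alleles. T>C over the 5 T positions had a mean of 0.148% ± 0.0728 (SD, n = 16) against 0.175% elsewhere, and was lower in 11 of 16 libraries.

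A T>C allele was counted in at least 1 library at 276 positions, 5.90% of all T positions, and an A>G allele at 209 positions, 3.71% of all A positions. Of both changes together, replicate 1 libraries counted 216 alleles and replicate 2 libraries 305. Counted in all 8 libraries were 6 and 11, and in exactly 1 library 149 and 222. The lists of both numbers shared 36 alleles, 16.7% of the first and 11.8% of the second, and 0 alleles were counted in all 16 libraries. For C>T and G>A, 24 alleles were shared, 19.4% and 10.7% of the lists, and 3 were counted in all 16.

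The highest T>C alleles of replicate 1 were moderate. T8300C (ATP6 L125P) had 1.06%, 1.86% and 2.78% as the lowest, median and highest of the 8 replicate 1 libraries, and 0.180%, 0.465% and 0.811% in the replicate 2 libraries. T14046C, on the reverse-oriented gene ND6 (S9G), had 0.906%, 1.86% and 2.11%, against 0.0704%, 0.140% and 0.254%. T8331C (ATP6 I135I) had 0.625%, 1.51% and 2.46%, against 0.216%, 0.344% and 0.651%. The libraries of both numbers did not overlap for T8300C and T14046C, and overlapped for T8331C. Without overlap in either direction were 0.299% of all 48897 alleles and 0.582% of the T>C and A>G alleles (60 of 10310). ATP6 is a subunit of ATP synthase, and ND6 a subunit of complex I.

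The highest T>C alleles of replicate 2 reached further. T1449C, in the 16S rRNA gene mt-Rnr2, had 3.51%, 4.43% and 5.17% in replicate 2 libraries and 0.174%, 0.658% and 0.877% in replicate 1 libraries. T3975C (ND2 M21T) had 2.26%, 3.03% and 4.46%, against 0.245%, 0.296% and 0.590%. T3607C (ND1 M286T) had 2.16%, 3.05% and 4.42%, against 0.0234%, 0.219% and 0.353%. None of these 3 overlapped between the numbers.

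The highest A>G alleles of replicate 1 had higher medians than the T>C alleles of that number. A11465G (ND4 E433E) had 5.44%, 6.80% and 8.66% in replicate 1 libraries and 0.0193%, 0.251% and 0.581% in replicate 2 libraries. A10308G (ND4 N48D) had 4.89%, 5.76% and 6.27%, against 0.0276%, 0.0802% and 0.235%. A9444G, in the glycine tRNA gene TrnG, had 2.19%, 3.25% and 3.74%, against 0.0871%, 0.419% and 1.24%. All 8 replicate 1 libraries lay above all 8 replicate 2 libraries for each of them, and ND4 is a complex I subunit.

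In replicate 2, A8790G (COX3 I62V) had 3.39%, 4.06% and 4.79%, against 0.321%, 0.490% and 0.776% in replicate 1. A11708G, in the leucine tRNA gene TrnL2, had 1.32%, 2.24% and 3.29%, against 0.0677%, 0.377% and 0.704%. A11579G, in the histidine tRNA gene TrnH, had 0.389%, 1.91% and 2.77%, against 0.0713%, 0.205% and 0.666%. Of the 12 alleles with the highest means, 10 did not overlap between the replicate numbers, which is a description, since they were chosen for a high mean in 1 number and the background of 0.582% covers all T>C and A>G alleles.

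The 4 alleles that reached the highest fraction while counted in a single library were all in CD24_CD29 cells. T14914C (CYTB M257T, a subunit of complex III) had 1530 of 21731 counts in CD24_CD29 replicate 1, 7.04% (Clopper-Pearson 95% interval 6.70% to 7.39%), and at most 0.459% in the other 7 libraries of that number. A10814G (ND4 L216L) had 364 of 13589 counts in the same library, 2.68% (2.41% to 2.96%), and at most 0.384% in the other 7. T10941C (ND4 Y259H) had 186 of 5390 counts in CD24_CD29 replicate 2, 3.45% (2.98% to 3.97%), and at most 0.643% elsewhere in that number. A5062G, in the alanine tRNA gene TrnA, had 166 of 5116 counts there, 3.24% (2.78% to 3.77%), and at most 0.135% in the other 7. These intervals cover counting error only, since the reads carry no molecular identifiers.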

How the data were processed

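The submitters deposited whole-number counts: per library, the coverage at every mitochondrial position and how often each non-reference base was read, not normalized by the authors. Per the labels' protocols, sorted cells were lysed, tagmented with Tn5 and read paired-end, 100 bp, on a NovaSeq6000. Per the submitters' processing notes, the tools were BWA 0.7.17, cutadapt 2.10 and bcl2fastq 2.20, and the builds named are mm10 and GRCm38. What was done about read quality, duplicates and nuclear mitochondrial copies, each of which can change a low fraction, is not given in the sources used here.

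Fractions were averaged over positions within a library, and libraries were grouped by their titles. Differences between classes of positions were log2 ratios per library, averaged per subset and tested with an exact two-sided sign-flip permutation test over 8 subsets. Differences between subsets used the share of variance between subsets on log2 values, with an exact one-sided permutation test over all 2027025 pairings. With 2 libraries a subset, 1 subset that alone stands apart cannot pass it. P-values were adjusted by the Benjamini-Hochberg method over 3 strand, 6 position, 32 context and 5 between-subset tests, with a threshold of 0.05. Errors over positions came from the spread of position means over the 16 libraries, treating positions as independent. Gene limits came from RefSeq (GRCm38.p6, chromosome MT), and orientation from stop codons in the vertebrate mitochondrial code. Positions in 2 genes were left out of codon positions. Scripts were tested on simulated data. Software was pandas 2.3.3, numpy 2.4.6 and scipy 1.17.1 under Python 3.11.15, with Biopython 1.88 for codons and matplotlib 3.10.9 for plots.

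The alleles, contexts, tests and thresholds were chosen with earlier results of these data known. Named were the 3 highest mean alleles and the highest single-library allele per change and number, the 3 highest and lowest contexts, and the highest and lowest bin. Alternatives varied the libraries, thresholds, coverage minimum, bins, averaging and depth.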

Additional observations from a re-analysis of the deposited data

How the results depend on the processing

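The strand asymmetry for all and for low alleles, and its difference from G>A over C>T, kept their direction and side of the threshold under every alternative run, as did the A>G arc comparison. Both numbers of contexts stayed within 1.5 times, and the number of T>C alleles passed under none. The T>C arc difference passed under none either, but its sign turned at a threshold of 0.5% (0.071) and for medians over positions (0.0010), as did that of the A>G slope without runs (0.0056). Leaving out 1 library at a time gave 0.45 to 0.47 for the asymmetry of all alleles on the log2 scale, 81.8% to 93.3% between subsets for T>C and 82.8% to 92.7% for A>G, -0.0080 to -0.0011 per kb for the A>G slope, and 0.022 to 0.046 (T>C) and 0.029 to 0.047 (A>G) for codon position 3. Between subsets, T>C gave 85.3% without both CD24_CD29 libraries, 73.7% without both 6C3 and 87.2% without both CD29, and A>G gave 86.2%, 74.1% and 87.6%, none of which passed. The asymmetry between subsets passed for low alleles, at 80.9%, and A>G alleles at a threshold of 2%, at 79.9%. At that threshold T>C alleles gave no value, because a library had 0. The codon comparison kept its call in 15 of 16 omissions of 1 library for T>C and in 14 of 16 for A>G. It lost it in A>G without both CD24_CD29 (0.042) or both 6C3 libraries (0.032), for pooled counts (0.027), a coverage minimum (0.024), without runs (0.021) and for alleles under 0.5% (0.021). In both changes it was lost at 2% (0.018 for T>C, 0.031 for A>G), for all alleles (0.0076 and 0.022) and in replicate 2 alone (0.0034 and 0.031). T>C turned to -0.070 at 0.5%, where the slopes were -0.011 (T>C, lost) and -0.017 (A>G, passed). Leaving out both 6C3 or both CD29 libraries, the control region or unequal context weights was added after seeing the data. Where a call changed, the cause was not tested.

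A replicate block gave 87.6% for T>C and 86.9% for A>G (exact permutation adjusted p = 0.0532 for both), and 89.1% for the asymmetry (0.0408). Deviations of same-numbered libraries from their subset mean correlated at 0.0989 to 0.323 over 28 pairs. The labels do not tie a number to an animal and not every pair exceeded 0.1, so the numbers were not used as pairs, although for 16 of 16 libraries the best correlated library of another subset had the same number. Depth limits single fractions: a count of 0 allows up to 0.0457% at the mean coverage of the shallowest library. It allows more where coverage is lower, down to 2391 counts in that library.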
